A study of Arabidopsis thaliana with 18 samples.

Results

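Caesium-treated shoots of Arabidopsis thaliana were set against control shoots, 3 arrays of each, out of 18 arrays in the whole series. The arrays were chosen by their titles, and same-numbered arrays of the groups were treated as pairs. All plants were the Wassilewskija accession Ws-2 at growth stage 3.90, raised in a growth room at 22 °C and 80% humidity under a 16 h day, on sucrose-containing (1%) agar with a dilute Murashige and Skoog salt mix, once seeds had been imbibed for 3 to 5 days at 4 °C. By their labels, the shoot groups differed in treatment only: caesium-treated shoots, control shoots and, for comparison, potassium-starved shoots. Caesium-treated and control roots from the same experiment were used as well, and potassium-starved roots entered the fit of all 18 arrays. How much caesium was given, for how long, and how potassium was withheld is not stated in the labels used here. The labels do not say either whether the 3 replicates were separate cultures, and p-values therefore measure only how far these samples spread, which may be technical.

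Potassium is the main inorganic cation of plant cells, where it balances charge, drives cell expansion and activates enzymes. Caesium belongs to the same group of alkali metals, enters roots through channels and transporters that normally carry potassium, reaches the shoot through the xylem, and is toxic when it accumulates. The series sets caesium beside potassium starvation, and the question taken up here is which shoot transcripts differed after caesium alone.

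Transcript abundance was read as the MAS5 signal of each probe set on the ATH1 array, a 1-colour chip that carries 22746 probe sets besides its controls. Of these, 14665 were bright enough to be tested, meaning that on at least 3 of the 9 shoot arrays they lay above that array's 40th percentile. A difference was called at an adjusted p under 0.05 (limma, Benjamini-Hochberg over all 14665). The words rose and fell are used below for called probe sets only. Every value after the word log2 is a difference, caesium-treated minus control, ± its standard error from limma, and every signal is on the linear MAS5 scale. Median signals per array were 43.0 to 45.4 in caesium-treated shoots and 39.9 to 42.2 in control shoots. The shoot arrays of 1 group correlated at 0.912 or more, and caesium-treated with control arrays at 0.882 to 0.948. The ratio of 3' to 5' signal for actin was 3.26 on control replicate 1 and 4.83 to 6.02 on the other compared arrays. For GAPDH it was 1.45 on control replicate 1 and 1.01 to 1.23 on the others. Control replicate 1 was thus lowest for actin and highest for GAPDH, and the part of RNA quality in the calls was not tested. Of 10 markers of green tissue, 5 had a named probe set, and their summed signal was 9490 to 12671 in caesium-treated shoots against 12620 to 14483 in control shoots. The root marker PYK10 read 129, 949 and 420.0 in caesium-treated shoots (replicates 1 to 3) against 173, 1200 and 279 in control shoots, so it was highest in replicate 2 of both groups. EXPA7 and EXPA18, markers of root hairs, stayed at 14.0 to 30.1 in these 6 arrays. The trichome marker TRY lay between 15.6 and 27.9 and the stem cell marker CLV3 between 1.06 and 3.49 in the same arrays. In whole shoots, a smaller share of cells of a type and less RNA per cell cannot be told apart.

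After caesium, 436 probe sets rose (2.97% of those tested) and 245 fell (1.67%), together 4.64%. Rises were also the larger changes: 287 of the 436 were at least 2-fold, against 68 of the 245 falls, and the median log2 difference was 1.18 among rises and -0.84 among falls. Probe sets that rose were dim in the control, with a median signal of 132 in caesium-treated shoots against 57.3 in control shoots. Those that fell were brighter, at 156 in caesium-treated shoots against 320.2 in control shoots. The balance depended on scaling. Rises made up 64.0% of calls as deposited, 57.5% (381 rises, 282 falls) after quantile normalization and 43.1% (307 rises, 406 falls) after a shift of every array to a common median, which moved the median log2 difference of all tested probe sets to -0.08, against 0.03 as deposited. The plot of the difference by signal shows rises on the dim side and falls on the bright side.

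**Figure D1:**
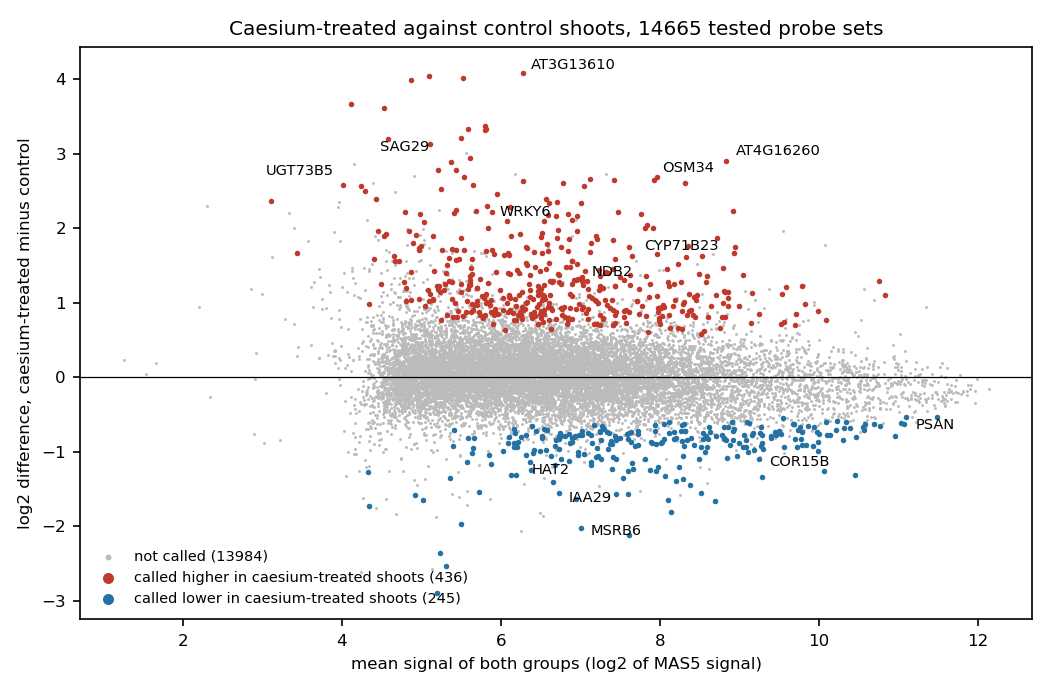
Each point is 1 of 14665 tested probe sets, with the mean log2 signal of the caesium-treated and control shoots on the x axis and the log2 difference (caesium-treated minus control) on the y axis. The 436 called rises reach 4.08, the 245 called falls reach -2.89, and labels mark 13 of the named genes.

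The pairing carried much of the precision. Same-numbered arrays deviated together, and with the replicate number left out of the fit 67 rises and 16 falls were called, all 83 of them also called with it in the same direction. Single arrays weighed heavily too. Without caesium-treated replicate 3 there were 7 rises and 1 fall, without control replicate 3 there were 50 and 9, and without caesium-treated replicate 2 there were 63 and 12. Leaving out control replicate 1 gave 206 and 32, and leaving out control replicate 2 gave 233 and 53. Caesium-treated replicate 1 mattered less, with 334 rises and 164 falls called in the fit without it. The potassium-starved arrays, which enter through the shared spread and the filter on low signals, moved the counts to 635 and 426 (without replicate 1), 665 and 427 (without replicate 2) and 300 and 155 (without replicate 3). Control replicate 3 was the lowest of the 3 control arrays for 62.4% of the rises, against 27.7% of all tested probe sets, and for 11 of the 12 largest named rises. Of the 681 called probe sets, 610 did not overlap between the groups, where 14.6% of all tested probe sets lay entirely above the control and 10.5% entirely below it. Lack of overlap was thus common among called probe sets, and where it is given for a gene below it only describes the arrays.

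Only 320 of the called probe sets pointed to a single gene in the annotation, and 70 of those genes carry a name beyond their locus number, 50 that rose and 20 that fell. The largest rise was that of F6'H1 (AT3G13610), the hydroxylase that makes the coumarin scopoletin and is known for root responses to iron shortage. F6'H1 read 82.4, 140.0 and 204 in caesium-treated shoots against 17.45, 20 and 1.39 in control shoots, a log2 difference of 4.08 ± 0.74 (adjusted p = 0.0192). The groups were far apart, but all 3 control arrays lay below the 40th percentile of their own array, where MAS5 values are noisy, and with 16 added to every signal the difference was 2.44. OSM34 (AT4G11650), an osmotin-like protein of the thaumatin family, read 275, 686 and 265 after caesium against 59.2, 154 and 21.9 in the control (log2 2.65 ± 0.34, adjusted p = 0.00842). Replicate 2 was the highest array of both groups for OSM34, and within every pair the caesium-treated array was the higher one. The same ordering held for AT4G16260, with 511, 1085 and 583 in caesium-treated shoots and 72.7, 470.4 and 22.9 in control shoots (log2 2.9 ± 0.49, adjusted p = 0.0156). For both genes replicate 2 was also the replicate with the highest PYK10 signal in each group, and both were bright in control roots, at 1591 ± 313 for OSM34 and 1464 ± 318 for AT4G16260 (SD, n = 3). The part of root-type transcript in these values was not tested. PYK10 was not called (log2 -0.05, adjusted p = 0.961 in limma), but it varied too widely between replicates of both groups to decide that question.

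AT1G26380 and AT3G53980 shared the smallest adjusted p among probe sets with 1 gene. AT1G26380 had 95.8, 135 and 112 in caesium-treated shoots against 29.6, 30.9 and 13.9 in control shoots (log2 2.28 ± 0.23, adjusted p = 0.00539). Its groups did not overlap, and it was 1 of 3 named genes called in every fit that left out an array, together with AT3G53980 (log2 1.67 ± 0.16) and AT1G65690 (log2 2.46 ± 0.32). AT3G53980 depended on the pairing, with 74.3, 98.7 and 239 after caesium and 22.9, 27.5 and 85.6 in the control. Its groups overlap as plain sets of arrays, while each caesium-treated array was about as far above its own partner, and without the pairing its adjusted p was 0.233. Among genes known only by locus whose caesium-treated arrays all lay above the 40th percentile of their own array, the other large rises were AT5G51440 (log2 3.61 ± 0.86), AT1G57630 (2.63 ± 0.53), AT1G10585 (2.3 ± 0.56), AT3G25610 (2.25 ± 0.35) and, by its small p, AT1G43910 (1.89 ± 0.22), each without overlap between the groups. Dimmer genes that were left aside by that condition included AT2G41380 (3.67 ± 0.57), AT3G28510 (2.51 ± 0.46) and AT5G12930 (2.39 ± 0.39).

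**Figure D2:**
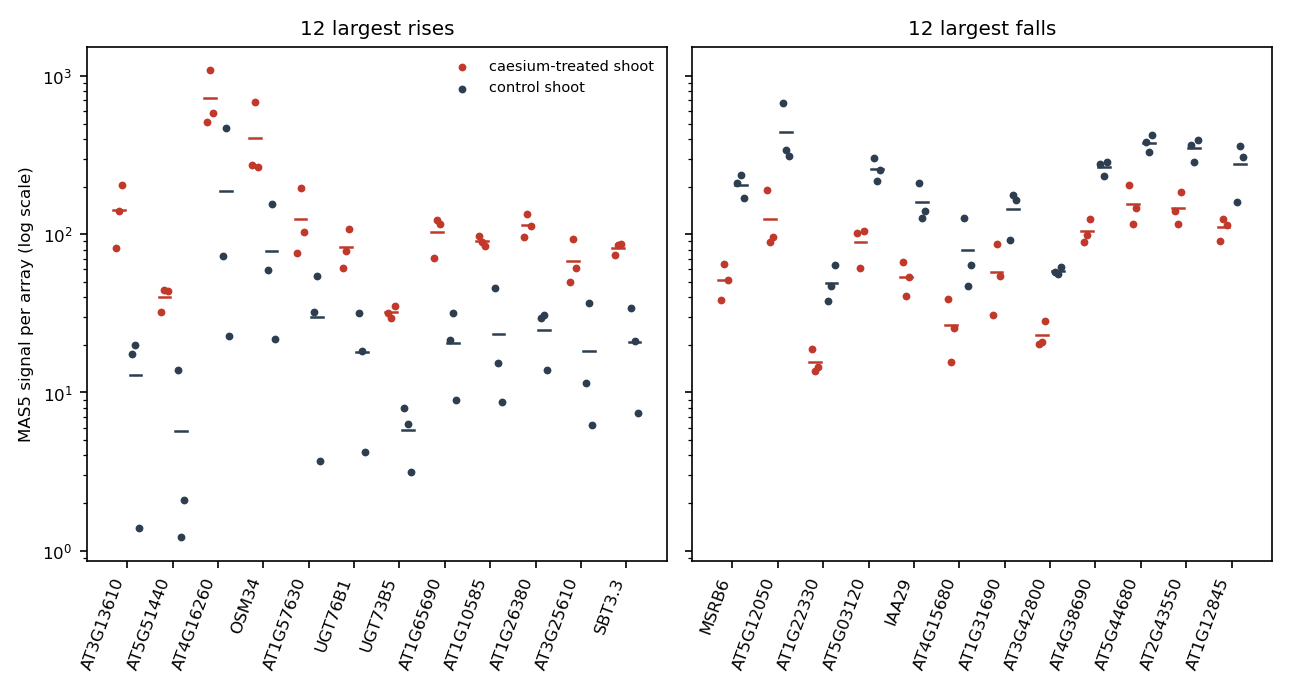
MAS5 signal per array (log axis) for the 12 largest rises and 12 largest falls among called probe sets with 1 gene, where every array of the higher group lay above its own 40th percentile, with caesium-treated shoots to the left of control shoots for each gene, points in replicate order and a bar at the mean of 3 arrays. None of the 24 genes overlaps between the groups, and control replicate 3 is the lowest control point for 11 of the 12 rises.

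A minority of the tested genes for glycosylation, oxidation and conjugation of small molecules rose. UGT76B1 (AT3G11340), a glucosyltransferase of salicylic acid and isoleucic acid, read 61.4, 78.3 and 108 in caesium-treated shoots against 32.0, 18.22 and 4.18 in control shoots (log2 2.58 ± 0.54, adjusted p = 0.0295). UGT73B5 (AT2G15480), a glucosyltransferase linked to redox stress, read 31.8, 29.7 and 35 against 7.93, 6.32 and 3.14 (log2 2.57 ± 0.43, adjusted p = 0.0156). Neither gene overlapped between groups, and the UGT73B5 controls were all among the dim signals under the 40th percentile, its difference being 1.15 with 16 added. UGT72B1 (listed as GT72B1), which conjugates monolignols and chlorophenols, rose less (log2 0.84 ± 0.20, adjusted p = 0.0465). These were 3 of 28 UGT genes tested (10.7%), with no member called lower and a family median of 0.16. Of all tested probe sets, 2.97% rose and 1.67% fell, and this count and those of families and lists below stand beside these shares. With few members tested, 1 or 2 calls say little about a family. Among 12 cytochrome P450 genes tested, CYP71B23 and CYP71B6 rose and none fell. CYP71B23 read 277, 273 and 359 after caesium against 111, 101 and 81.4 in the control, 2 well separated sets (log2 1.63 ± 0.22, adjusted p = 0.00921), and CYP71B6 differed by 0.90 ± 0.20. Of 8 glutathione transferases, GSTU25 rose (log2 1.26 ± 0.30, adjusted p = 0.0437) and GSTU18 fell (log2 -0.72 ± 0.16, adjusted p = 0.0365). The detoxification list, 6 genes tested that partly repeat these families, had UGT73B5, CYP71B23 and GSTU25 called higher and none lower. Its median was 0.89, where that of all tested probe sets was 0.03. Like the other lists, it was chosen with earlier results of these data known, so its count and median carry no weight of their own.

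Several redox enzymes rose beside them. GRX480 (AT1G28480), a CC-type glutaredoxin that binds TGA transcription factors, read 151, 147 and 193 in caesium-treated shoots against 94.4, 45.2 and 46.3 in control shoots (log2 1.48 ± 0.25, adjusted p = 0.0156). The alkenal reductase AER, which removes reactive carbonyls, rose by log2 1.06 ± 0.23, the glutathione reductase GR1 by 0.99 ± 0.21 and the monodehydroascorbate reductase ATMDAR2 by 0.63 ± 0.14, all 3 without overlap. FMO (AT1G12200), a flavin-containing monooxygenase, read 124, 115 and 153 against 63.8, 45.0 and 57.0 (log2 1.24 ± 0.17, adjusted p = 0.00975). The opposite direction was taken by MSRB6 (AT4G04840), a methionine sulfoxide reductase, which gave the largest fall of a named gene. MSRB6 read 38.3, 64.7 and 51.3 in caesium-treated shoots against 209, 238 and 169 in control shoots (log2 -2.02 ± 0.27, adjusted p = 0.00979). Every caesium-treated array for MSRB6 was less bright than every control array. Of 51 members on the list of oxidative stress enzymes, 9 were tested, with 1 rise (GRX480), 1 fall (MSRB6) and a median of 0.13. No family of glutaredoxins was counted, and genes given here by locus only may belong to it. GRX480 therefore does not stand for its class.

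Of 5 senescence genes tested, 4 rose and none fell, with a median log2 difference of 1.15. Over all tested probe sets the median was 0.03 and 2.97% rose. The list was chosen with earlier results of these data known, so its count and median describe these genes only. SAG29 (SWEET15), a sucrose exporter of senescing leaves, read 47.8, 20 and 159 after caesium against 9.91, 6.80 and 5.64 in the control (log2 2.88 ± 0.58, adjusted p = 0.0274). The caesium-treated arrays for SAG29 spread widely but all exceeded the controls, which lay below the 40th percentile, and with 16 added the call was lost (log2 1.66, adjusted p = 0.0514). WRKY6 (AT1G62300), a transcription factor of senescence and pathogen response, read 107, 86.9 and 90.4 in caesium-treated shoots against 36.6, 22.1 and 10.4 in control shoots (log2 2.21 ± 0.28, adjusted p = 0.00842). WRKY6 was clearly split between the groups. WRKY53, an early regulator of leaf senescence, read 129, 132 and 54.5 against 79.7, 41.7 and 25.6 (log2 1.15 ± 0.25, adjusted p = 0.0362); its groups overlapped and its pairs did not reverse. PPDK, which supplies phosphoenolpyruvate and aids nitrogen export from ageing leaves, rose by log2 0.82 ± 0.17, and the lipase-like SAG101 was not called (log2 0.61 ± 0.20, adjusted p = 0.122). WRKY6 and WRKY53 were the 2 called members among 6 WRKY factors tested.

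Single genes of defence and of the cell surface rose as well. The receptor-like kinase gene B120 (AT4G21390) read 55.2, 39.2 and 42.3 in caesium-treated shoots against 31.9, 11.8 and 7.07 in control shoots (log2 1.7 ± 0.36, adjusted p = 0.0305). GLR2.7, a glutamate receptor-like channel, read 86.7, 59.0 and 52.9 against 44.1, 24.0 and 5.24 (log2 1.87 ± 0.41, adjusted p = 0.0348), and it was the called member of 6 glutamate receptors and cyclic nucleotide-gated channels tested. Neither gene overlapped between the groups, although control replicate 1 came close to the caesium-treated arrays in both. The class V chitinase ChiC rose by log2 1.41 ± 0.32 and the jacalin-related lectin JAL23 by 1.38 ± 0.19. CCOAMT (AT1G67980), a methyltransferase of phenylpropanoid metabolism, read 94.5, 169 and 107 after caesium against 42.6, 42.8 and 25.3 in the control (log2 1.74 ± 0.32, adjusted p = 0.0199). Of 3 genes tested from the camalexin and indole phytoalexin list, AT1G26380 and AT1G26390 were called higher, and AT1G26420 was not (log2 2.7 ± 0.68, adjusted p = 0.0535). The jasmonate and wounding list had 7 tested members, all 7 with differences above 0 and none called; its lowest adjusted p was that of OPCL1, a peroxisomal ligase of jasmonate synthesis (log2 0.66 ± 0.24, adjusted p = 0.156).

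Secreted serine proteases stood out after their values had been seen. Of 4 subtilases tested, 3 were called, all higher. SBT3.3 (AT1G32960), a subtilase linked to immune priming, read 74.3, 86.1 and 86.6 in caesium-treated shoots against 34.2, 21.0 and 7.44 in control shoots (log2 2.23 ± 0.36, adjusted p = 0.0139). Its relative SBT3.5 (AT1G32940) read 152, 176 and 228 against 87.7, 54.3 and 15.9 (log2 2.11 ± 0.43, adjusted p = 0.0283), and ATSBT5.2 read 78.6, 36.8 and 54.1 against 34.6, 10.8 and 22.8 (log2 1.4 ± 0.26, adjusted p = 0.0199). All 3 were free of overlap between the groups, as were 610 of the 681 called probe sets. The serine carboxypeptidase-like gene scpl31 rose by log2 1.28 ± 0.30. Of 7 plant U-box ubiquitin ligases tested, PUB23, a negative regulator of pattern-triggered immunity, rose by 1.56 ± 0.32 and PUB19 by 0.85 ± 0.20. These families, the co-chaperones, the RNA polymerase subunits and the chloroplast NDH complex were grouped after the values had been seen, so their counts describe the called genes and carry no weight of their own.

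Protein folding factors made another group of rises. Hsp70-2 (AT5G02490), a cytosolic HSP70 chaperone, read 254, 325 and 401 in caesium-treated shoots against 124, 134 and 118 in control shoots (log2 1.36 ± 0.23, adjusted p = 0.0156). Fes1A, which protects cytosolic HSP70 from degradation, read 112, 168 and 175 against 53.5, 68.5 and 63.0 (log2 1.28 ± 0.19, adjusted p = 0.0113). Its paralogue Fes1B went the other way, with 79.2, 86.5 and 66.7 after caesium and 165, 120.4 and 118 in the control (log2 -0.79 ± 0.19, adjusted p = 0.0447). All 3 genes were cleanly separated between the groups. Cpn60beta2, a chloroplast chaperonin subunit, rose by log2 0.81 ± 0.19 and BOB1, a NudC-type small chaperone, by 0.72 ± 0.15, which made 4 rises and 1 fall among 9 co-chaperones and chaperonins tested. Of 42 members on the list of heat shock genes, 5 had a probe set with 1 gene and 3 were tested. None of the 3 was called, the lowest adjusted p being that of BZIP60, a transcription factor of the unfolded protein response (log2 0.60 ± 0.18, adjusted p = 0.0948). The list therefore does not describe other heat shock genes, which may be among the genes given here by locus only.

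RNA polymerase I, which transcribes ribosomal RNA, was represented by its subunits NRPA1 and NRPA2. NRPA1 (AT3G57660), the largest subunit, read 88.7, 77.8 and 56.0 in caesium-treated shoots against 33.1, 32.2 and 37.7 in control shoots (log2 1.09 ± 0.22, adjusted p = 0.028). NRPA2 (AT1G29940) read 207, 156 and 158 against 93.9, 94.0 and 114 (log2 0.78 ± 0.17, adjusted p = 0.037). Both rose without overlap, and they were the 2 called among 9 polymerase subunits tested. TRZ3, a ribonuclease that trims tRNA 3' ends, rose by 0.84 ± 0.17, and the linker histone HIS1-3, known for its induction by drought, rose by 1.4 ± 0.34. HIS1-3 was the called member of 7 histones tested (median -0.20) and the only 1 with a difference above 0.

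Single genes of respiration and carbon metabolism rose. NDB2 (AT4G05020), an NAD(P)H dehydrogenase on the outer face of the inner mitochondrial membrane, read 157, 162 and 236 in caesium-treated shoots against 87.4, 76.6 and 68.5 in control shoots (log2 1.24 ± 0.23, adjusted p = 0.0194). With AT2G41730 (log2 2.16 ± 0.36) and GSTU25 it formed the 3 called members of the mitochondrial dysfunction list, of 8 tested with a median of 0.93. SDH1-1, the flavoprotein subunit of succinate dehydrogenase, rose by 0.84 ± 0.18 with no overlap. The 11 mitochondrion-encoded probe sets tested had a median of 0.30, 10 of them above 0 and none called, the lowest adjusted p being 0.0519 for ccb382. AT4G33150, the bifunctional lysine-degrading enzyme LKR/SDH, read 97.5, 132 and 148 after caesium and 65.2, 50.1 and 59.4 in the control (log2 1.1 ± 0.21, adjusted p = 0.0243). Of 12 starch and sugar genes tested, 3 rose and none fell. These were SAG29, the alpha-amylase AMY1 with 51.8, 71.6 and 77.9 in caesium-treated shoots against 34.0, 26.8 and 27.0 in control shoots (log2 1.18 ± 0.26, adjusted p = 0.0366), and APL3, a large subunit of ADP-glucose pyrophosphorylase, whose groups overlapped (log2 0.92 ± 0.20, adjusted p = 0.0346). The list's median was 0.15.

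Transporters and hormone genes contributed single rises. AT1G68570 (NPF3.1), of the nitrate and peptide transporter family, read 379.8, 178 and 477 against 133, 126 and 269, with overlap between caesium-treated and control arrays (log2 0.95 ± 0.22, adjusted p = 0.0437). AT5G52050 (DTX50), an abscisic acid efflux carrier, rose by log2 0.98 ± 0.23 with all controls below the 40th percentile, and the gibberellin receptor gene GID1B rose by 1.23 ± 0.23. Of 45 genes on the list of potassium uptake and channels, 2 had a probe set with a single gene and neither passed the filter on low signals, so potassium transport is not described here.

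Further named genes rose outside these groups. YLS5 (AT2G38860), a DJ-1 family protein, read 310.1, 642 and 356 in caesium-treated shoots against 151, 251 and 130.2 in control shoots, without overlap (log2 1.28 ± 0.18, adjusted p = 0.00984). SUFE2, an activator of iron-sulphur cluster assembly, read 59.5, 204 and 95.2 against 20.3, 137 and 21.5, overlapping between replicates and higher within each pair (log2 1.42 ± 0.28, adjusted p = 0.0246). SAT32, named for salt tolerance, rose by 0.99 ± 0.17, the small GTPase gene SGP1 by 0.99 ± 0.18, the glucan, water dikinase gene PWD by 1.04 ± 0.25 and AT2G31110 (TBL40) by 0.78 ± 0.18, all log2. Another probe set of AT2G31110 was not called (log2 0.64, adjusted p = 0.148). On the lower side, SETH3 read 176, 186 and 186 after caesium against 323, 312 and 374 in the control, without overlap (log2 -0.88 ± 0.16, adjusted p = 0.0194), PRA1.B6, a prenylated Rab acceptor, fell by 0.79 ± 0.18 and P1R1 fell by 0.84 ± 0.16.

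IAA29 and HAT2, genes of auxin and shade responses, were among the falls. IAA29 (AT4G32280), an Aux/IAA repressor induced by shade, read 66.3, 41.0 and 53.8 in caesium-treated shoots against 209.7, 126 and 140.4 in control shoots (log2 -1.56 ± 0.19, adjusted p = 0.00842). HAT2 (AT5G47370), a homeodomain-leucine zipper factor of the same responses, read 106, 66.8 and 87.3 against 220.0, 171 and 192 (log2 -1.18 ± 0.19, adjusted p = 0.0137). Both genes were lower on every caesium-treated array than on any control array. They were the 2 called members of the auxin list (6 tested, median -0.26) and also of the shade and phytochrome list (5 tested, median -0.67), which share them. The largest falls known only by locus were those of AT5G12050 (log2 -1.81 ± 0.32), AT1G22330 (-1.64 ± 0.30), AT5G03120 (-1.56 ± 0.28), AT4G15680 (-1.53 ± 0.31), AT1G31690 (-1.40 ± 0.19), AT3G42800 (-1.36 ± 0.23), AT4G38690 (-1.36 ± 0.25), AT5G44680 (-1.32 ± 0.24), AT2G43550 (-1.26 ± 0.19) and AT1G12845 (-1.25 ± 0.26). AT5G18600 joined them by its small p (log2 -1.06 ± 0.15, adjusted p = 0.0106). AT1G22330 has another tested probe set, which was not called (log2 -1.08, adjusted p = 0.357).

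Among photosynthesis genes, PSB27 and PSAN fell by small steps from high signals. PSB27 (AT1G03600), an assembly factor of photosystem II, read 1402, 1304 and 1369 in caesium-treated shoots against 2212, 1948 and 2240.2 in control shoots (log2 -0.65 ± 0.11, adjusted p = 0.0174). PSAN (AT5G64040), a lumenal subunit of photosystem I, read 1559, 1908 and 1878 against 2196, 2737 and 2847 (log2 -0.54 ± 0.11, adjusted p = 0.0313). Both were separated between the groups, and they were the 2 called members of 9 photosystem genes tested, of which 1 had a difference above 0 (median -0.29). LHCB4.2, an antenna protein of photosystem II, was not called, with 976, 2044 and 1099 after caesium and 1605, 2759 and 1554 in the control (log2 -0.55 ± 0.17, adjusted p = 0.0979). None of 9 chlorophyll and carotenoid genes was called (median -0.35), the lowest adjusted p being that of the methyltransferase gene CHLM (log2 -0.53 ± 0.14, adjusted p = 0.0657), and none of 50 plastid-encoded genes was called (median -0.05). The thioredoxin TRXF2, which activates Calvin cycle enzymes in light, differed by log2 -0.66 ± 0.14, and LrgB, an envelope transporter of glycolate and glycerate, by -0.55 ± 0.13, both called lower.

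The chloroplast NDH complex, which carries electrons around photosystem I, had 3 falls and no rise among 7 nuclear-encoded subunits and assembly factors tested. NdhL (AT1G70760) read 365, 254 and 371 in caesium-treated shoots against 695, 517 and 623 in control shoots (log2 -0.90 ± 0.15, adjusted p = 0.0156). NdhN read 327, 192 and 214 against 524, 387 and 434 (log2 -0.90 ± 0.21, adjusted p = 0.0439), and CRR42, an assembly factor, read 74.3, 70.3 and 68.4 against 148, 134 and 123 (log2 -0.92 ± 0.18, adjusted p = 0.0237). None of these 3 genes overlapped between the groups. NdhS was not called (log2 -0.40 ± 0.24, adjusted p = 0.396).

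Cold-regulated genes and a wall enzyme fell as well. COR15B (AT2G42530), a protectant of the chloroplast stroma, read 491, 296 and 385 in caesium-treated shoots against 1041, 658 and 784 in control shoots (log2 -1.09 ± 0.18, adjusted p = 0.0142). The dehydrin COR47 read 715, 711 and 821 against 1366, 937 and 1594 (log2 -0.76 ± 0.19, adjusted p = 0.0492), and COR27, a regulator at the crossing of cold, light and the clock, fell by 0.72 ± 0.17 on the log2 scale. The groups did not overlap for any of the 3 genes. COR15B and COR47 were the called members of 5 tested on the abscisic acid, drought and cold list (median -0.76), and 2 of the 5 had differences above 0. In the wall, EXGT-A3 (XTH27), a xyloglucan endotransglucosylase, read 239.9, 469 and 251 after caesium and 446, 913 and 375 in the control, overlapping between replicates and lower within each pair (log2 -0.81 ± 0.15, adjusted p = 0.0194). It was the called member of 7 such enzymes and of 13 wall expansion genes, and SKU5, a glycoprotein of directional growth, fell by 0.96 ± 0.18 on the log2 scale. No member was called among 10 expansins, 13 bZIP factors, 11 autophagy genes or 6 calcium signalling genes tested.

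Some of these calls were lost under another scaling, without a change of direction. After quantile normalization the genes AT5G51440, AT1G10585, ChiC, HIS1-3, scpl31, GSTU25, AT5G52050, AT1G68570, APL3, PUB19, PWD and AT2G31110 were no longer called, nor were they after a shift to a common median. Quantile normalization also ended the calls of AT3G61930, AMY1, PSAN, LrgB and COR47, and the shift to a common median those of GT72B1, Cpn60beta2, NRPA2, BOB1 and ATMDAR2. With 16 added to each signal, the calls of SAG29, AT3G61930, AMY1 and AT5G52050 were lost.

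**Figure D3:**
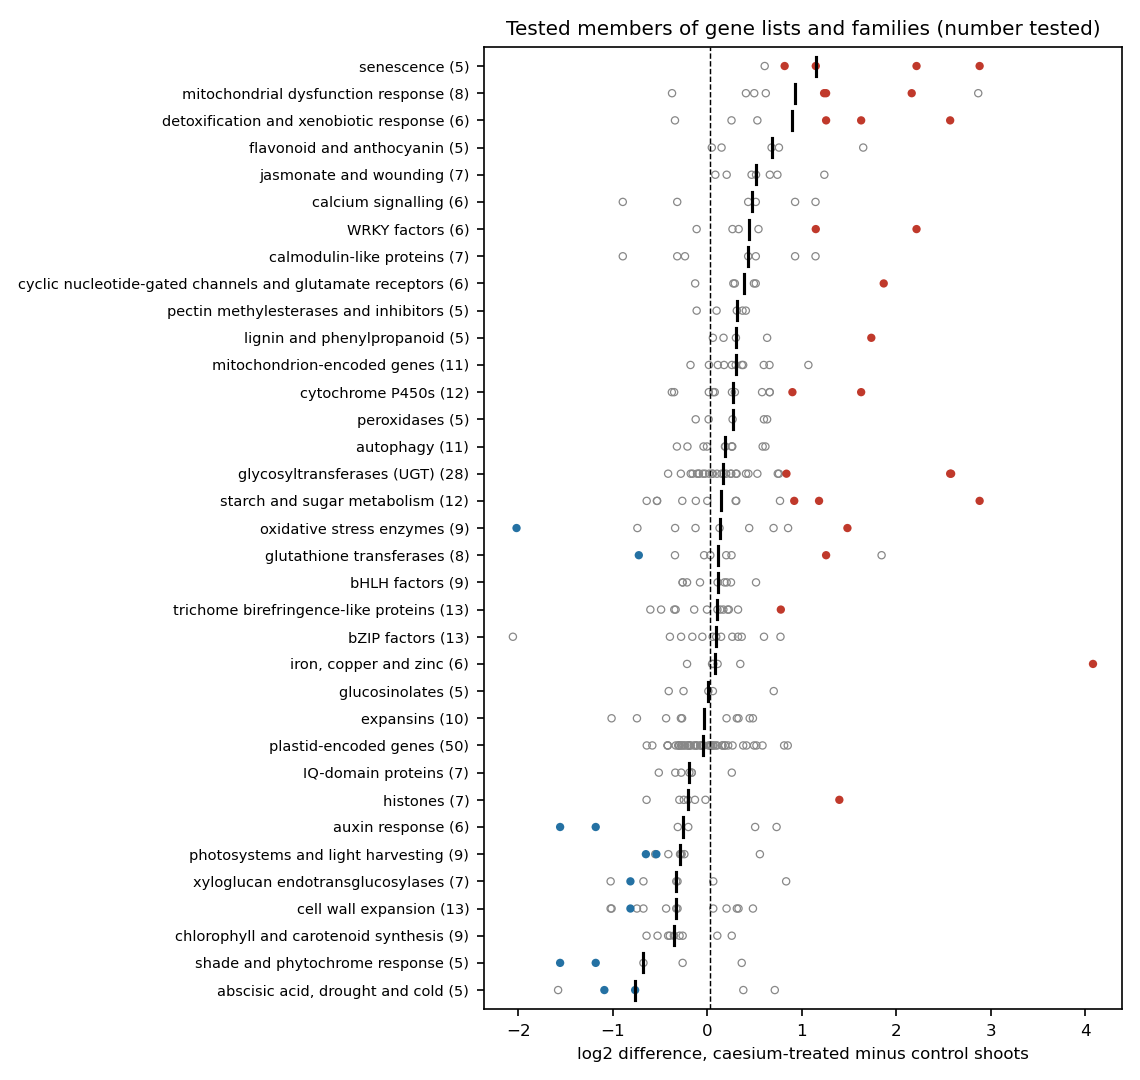
Log2 difference (caesium-treated minus control shoots, x axis) of each tested member of the lists and families with at least 5 tested genes. The families added after the values had been seen are not drawn. Each line is 1 list or family, with the number tested in brackets. Red points rose, blue points fell and open points were not called. Black bars are medians and the dashed line is the median of all tested probe sets (0.03). Senescence, with a median of 1.15, is at the top. At the bottom is the abscisic acid, drought and cold list, with -0.76 and 2 of its 5 tested genes above 0.

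Potassium-starved shoots of the same experiment gave a further comparison. Between caesium-treated and potassium-starved shoots, 3664 probe sets were higher (25.0%) and 1814 lower (12.4%) in caesium-treated shoots, together 37.4%. Starvation alone gave more calls than caesium, with 2181 rises (14.9%) and 3503 falls (23.9%) in potassium-starved shoots relative to the control, together 38.8%. Both treatments were set against the same 3 control arrays, so their differences from the control share those arrays and are given side by side. Some genes that rose after caesium were not called between the treatments. WRKY6 was 2.21 ± 0.28 above the control after caesium and 2.31 ± 0.28 after potassium starvation, and AT3G53980 was 1.67 ± 0.16 and 1.67 ± 0.16, all on the log2 scale (adjusted p = 0.801 and 0.999 between the treatments). Other genes were higher after caesium than after starvation. Fes1A exceeded its potassium-starved level by log2 0.83 (adjusted p = 0.00879), NRPA1 by 1.56 (adjusted p = 0.00111), ATSBT5.2 by 1.55 (adjusted p = 0.00207) and YLS5 by 0.63 (adjusted p = 0.0189). Cpn60beta2 had opposite differences from the control, 0.81 ± 0.19 after caesium and -1.58 ± 0.19 after starvation, and so did TRZ3, at 0.84 ± 0.17 and -0.84 ± 0.17. For further genes caesium gave the smaller rise: AMY1 was 1.18 ± 0.26 after caesium and 4.75 ± 0.26 after starvation, SAG29 2.88 ± 0.58 and 5.45 ± 0.58, and NDB2 1.24 ± 0.23 and 2.53 ± 0.23, each called between the treatments (adjusted p = 0.000115 for AMY1, 0.00805 for SAG29 and 0.00245 for NDB2).

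Among the 436 rises, caesium-treated shoots were called above potassium-starved shoots for 110 probe sets and below them for 92. Among the 245 falls, they were called below for 51 and above for 41. Of all 14665 tested probe sets, 25.0% were called above and 12.4% below. The rises and falls had been picked with the same caesium-treated arrays, so these counts only describe them. The starvation difference was above 0 for 369 of the 436 rises and below 0 for 228 of the 245 falls. Those differences use the same control arrays as the caesium differences. COR47 was lower after caesium (-0.76 ± 0.19) and higher after starvation (0.69 ± 0.19), and the treatments were called different (adjusted p = 0.000799). COR27 was -0.72 ± 0.17 after caesium and 0.15 ± 0.17 after starvation (adjusted p = 0.00376 between treatments), and AT2G43550 -1.26 ± 0.19 and 0.01 ± 0.19 (adjusted p = 0.00128). For IAA29 the caesium difference of -1.56 ± 0.19 was the smaller, against -2.52 ± 0.19 after starvation (adjusted p = 0.00456), and likewise for SKU5, at -0.96 ± 0.18 and -2.41 ± 0.18 (adjusted p = 0.00071). NdhL, at -0.90 ± 0.15 and -0.92 ± 0.15, COR15B, at -1.09 ± 0.18 and -1.02 ± 0.18, and MSRB6, at -2.02 ± 0.27 and -2.08 ± 0.27, were not called between caesium and starvation (adjusted p = 0.927, 0.788 and 0.885).

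**Figure D4:**
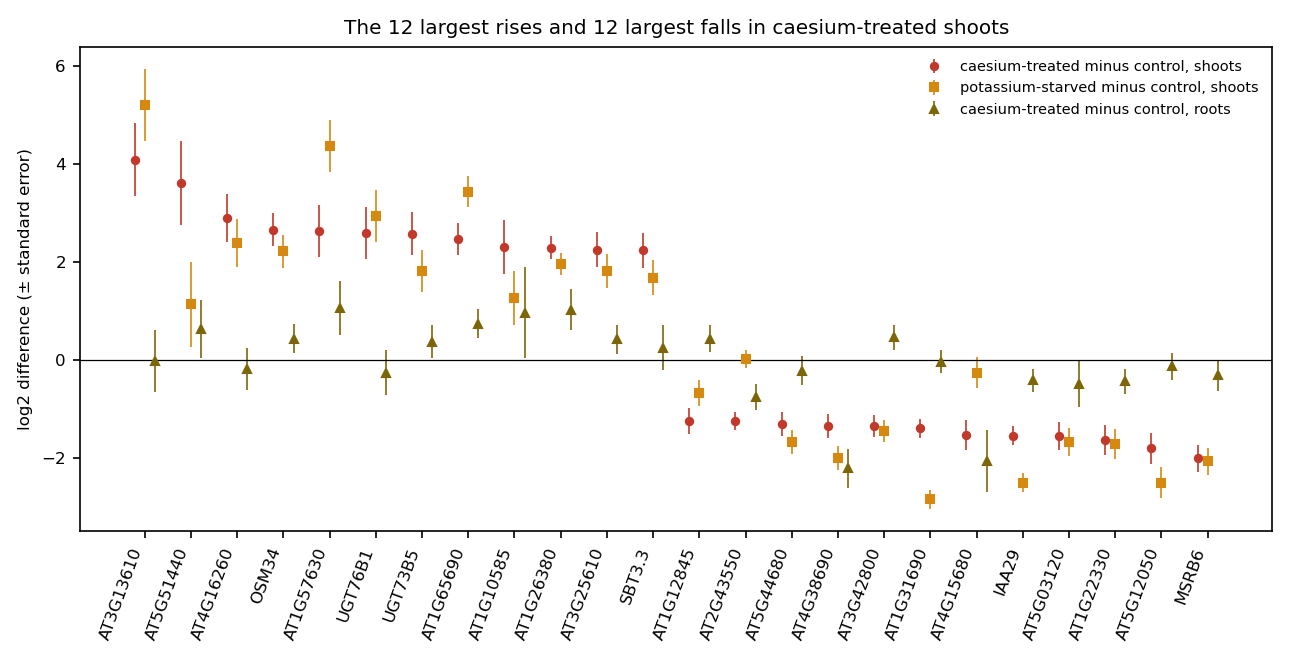
Log2 differences with standard errors (limma) for the 12 largest rises and 12 largest falls under the same condition on brightness: caesium-treated minus control shoots (circles), potassium-starved minus control shoots (squares) and caesium-treated minus control roots (triangles). F6'H1 (AT3G13610), for example, stands at 4.08, 5.19 and -0.03; the 2 shoot differences share their control arrays.

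Roots of the same experiment showed fewer calls in a fit of all 18 arrays. After caesium, 65 probe sets were higher (0.396% of 16397 tested) and 28 lower (0.171%) in roots, together 0.567%. Shoots had 680 higher and 313 lower in that same fit. The replicate numbers, used as a block, were less well borne out in roots. The difference between the tissues was tested as an interaction, the caesium difference in roots minus that in shoots, in a fit of all 12 caesium-treated and control arrays together with the 6 potassium-starved ones. It was called for 72 probe sets higher in roots (0.439%) and 84 lower in roots (0.512%), together 0.951%. Among genes described above, WRKY6 rose in shoots and read 126, 136 and 134 in caesium-treated roots against 74.1, 158 and 123 in control roots, an interaction of -1.99 ± 0.39 (adjusted p = 0.0369). CYP71B23 differed by 0.16 ± 0.20 in roots, with an interaction of -1.47 ± 0.29 (adjusted p = 0.0367). The corresponding interactions were -2.23 ± 0.42 for OSM34, -3.10 ± 0.60 for AT4G16260, -1.99 ± 0.43 for B120 and -1.57 ± 0.34 for AT4G33150, all lower in roots. Of the genes that fell in shoots, COR15B had an interaction of 1.25 ± 0.25 (adjusted p = 0.0369) and NdhL of 1.5 ± 0.27 (adjusted p = 0.0242), and both were dim in roots, where COR15B averaged 25.3 ± 5.3 after caesium and 22.2 ± 0.5 in the control (SD, n = 3 each). F6'H1, with a root difference of -0.03 ± 0.63, had an interaction just short of the threshold (-4.11 ± 0.90, adjusted p = 0.0507). For GSTU25, which differed by 1.62 ± 0.36 in roots, the interaction was not called (0.36 ± 0.51, adjusted p = 0.809). The interaction counts were as small as 7 higher and 6 lower without caesium-treated root replicate 1, and were 11 and 12 with the replicate number left out.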

How the data were processed

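The deposited values were the authors' signal intensity of each probe set (linear scale), computed with MAS5 per the submitters' processing notes, without version or settings. Array means, with 2% trimmed from either end, all stood near 100, the mark of a scaling to one mean by the authors.

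The log2 of each signal was used with no pseudocount. Testing required 3 or more of the 9 shoot arrays above the array's own 40th percentile. The 9 shoot arrays were fitted together with limma 3.58.1 in R 4.3.3 (lmFit, eBayes with a mean-variance trend, two-sided), with the replicate number as a block, and p-values were adjusted by Benjamini-Hochberg over all tested probe sets. The fit left 4 residual degrees of freedom per probe set and added a median of 5.84 from the other probe sets. The tissue interaction used all 18 arrays with the block within each tissue. The number of arrays limits the precision.

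The pairing comes from the titles. Deviations of same-numbered shoot arrays from their group means correlated at 0.203 to 0.639 over all 9 pairs, and between caesium-treated and control shoots at 0.551, 0.639 and 0.432. In roots the same correlations ran from -0.051 to 0.506, so the numbers are less well borne out there.

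Probe sets were named from the platform annotation (1 gene for 13513, several for 503, none for 8730), and 13436 of the 13513 matched a RefSeq gene of TAIR10.1. The genes named are the 12 largest rises and falls and the 5 smallest adjusted p per direction, among called probe sets with 1 gene, the same direction in all 3 pairs and a higher group above the 40th percentile. To these come called members of each list or family, the 70 called genes with a name, and the interaction's 5 smallest p per direction. Of 1438 members on 34 lists, 191 had a probe set with 1 gene and 160 were tested, of which 19 were called higher and 8 lower. An unnamed probe set may still belong to a gene. The members and lists were chosen with earlier results of these data known, and 5 families were added after the values had been seen. Sequences were not used here. Alternatives covered the block, scaling, an added constant, the filter, array weights, the arrays fitted and each array left out.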

Additional observations from a re-analysis of the deposited data

Results flagged for a closer look

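The caesium response differed between roots and shoots, by the interaction test in limma, for 72 probe sets in the direction of roots and 84 in the direction of shoots. Each value below is the log2 difference between caesium-treated and control roots minus that between caesium-treated and control shoots, so a negative value is a response lower in roots. Genes described above had interactions of -3.10 (AT4G16260), -2.23 (OSM34), -1.99 (WRKY6), -1.99 (B120), -1.57 (AT4G33150) and -1.47 (CYP71B23). Among genes that fell in shoots the values were 1.25 (COR15B), 1.5 (NdhL), 1.81 (AT3G42800) and 1.92 (AT5G18600). Each of these was dim in roots, where a fall could hardly be read. AT3G42800 averaged 27.2 ± 6.3 in caesium-treated roots and 19.9 ± 4.8 in control roots (SD, n = 3 each). AT5G18600 averaged 20.3 ± 11.9 and 10.6 ± 4.1.

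Further genes with the smallest p of the interaction were not described above. AT3G61930 had -3.51, with 36.4 ± 4.8 in caesium-treated roots and 80.0 ± 8.2 in control roots (SD, n = 3 each), a log2 difference of -1.14 ± 0.29 in roots. In shoots it was called higher (log2 2.37 ± 0.55, limma, adjusted p = 0.0416) from dim and overlapping signals, 7.71, 26.9 and 5.74 in caesium-treated shoots against 0.986, 9.22 and 0.951 in control shoots, and that call was lost with 16 added to each signal. AT2G44010 had -2.36 and AT2G30840 had -1.48, both too dim in shoots to be tested there. AT4G19370 had -1.75 and AT5G48430 had -1.44. On the other side, AT1G13930 had 1.48, with 421 ± 152 in caesium-treated roots and 271 ± 101 in control roots, and AT5G19940 had 1.28.

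Large positive values came from transcripts close to the lowest signals in control roots. The antenna gene LHCB4.2 had 3.88, from 20.1, 28.8 and 17.9 in caesium-treated roots against 1.66, 4.23 and 1.47 in control roots. AT1G67860 had 3.63 and AT1G23130 had 5.30, with 28.2 ± 27.6 in caesium-treated roots against 0.613 ± 0.164 in control roots. The summed signal of the green tissue markers was 299 to 451 in caesium-treated roots and 135 to 258 in control roots, and its part in these values was not tested.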

How the results depend on the processing

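For caesium-treated against control shoots (436 higher, 245 lower), the fit with no replicate block called 67 and 16, no filter on low signals 264 and 138, array weights 1480 and 1034, the 6 compared arrays alone 991 and 767, all 18 arrays in 1 fit 680 higher, and a shift to a common median 406 lower. Leaving out 1 array at a time gave 7 to 665 higher and 1 to 427 lower. Against potassium-starved shoots the shift to a common median gave 2163 higher and 3343 lower, and leaving out 1 array 1881 to 3493 higher and 925 to 1698 lower, both lowest without caesium-treated replicate 2. For the tissue interaction (72 higher, 84 lower in roots), the fit with no replicate block gave 11 and 12, quantile normalization 35 and 52, 16 added to each signal 115 and 145, no filter 55 lower, and array weights 336 and 472. Leaving out 1 of the 12 caesium-treated and control arrays gave 7 to 84 higher and 6 to 107 lower, with the lowest counts without caesium-treated root replicate 1. Without caesium-treated shoot replicate 1 it gave 52 and 107, and each of the other 11 moved at least 1 of these counts by over 1.5 times. The potassium-starved arrays were not left out of that fit. Of 95 named probe sets called in shoots, none changed direction under any alternative that tested them. Of these, 3 stayed called in every fit without 1 array, 50 under every other alternative except the fit without the block, and 16 in that fit. The cause of these changes was not tested.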

Other observations

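Among 2456 pairs of adjacent protein-coding genes with both members tested, 4 pairs were both called higher, none both lower, and 4 were called in opposite directions. Of the 59 pairs with the first gene called higher, 6.78% also had the second called higher, against 2.52% of all 2456 pairs, a difference that rests on those 4 pairs and was not tested. Sequences were not compared, so whether neighbours in a pair are similar genes, or are read by each other's probes, was not tested. The pairs that rose together were AT1G26380 with AT1G26390 (log2 2.28 and 2.16), AT1G61360 with AT1G61370 (0.83 and 1.03), AT3G13940 with AT3G13950 (0.93 and 1.7) and AT5G52750 with AT5G52760 (0.72 and 1.08). Opposite calls included WRKY53 (1.15) beside AT4G23820 (-0.92) and SETH3 (-0.88) beside AT3G54680 (1.03).

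Of the 681 called probe sets, 351 had no gene in the annotation and 10 had several. Probe sets without a gene shared the smallest adjusted p, 0.00539, with AT1G26380 and AT3G53980.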
